A study of Mus musculus with 8 samples.

Results

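Listed binding sites of Foxa2 and Hdac3 were examined at 5 stretches of the mouse genome that hold genes for proteins the liver secretes into plasma. The stretches, called windows below, were fixed by position in the mm9 build: chr5:90840000-90990000 for Alb and Afp, chr18:20770000-20880000 for Ttr, chr12:104900000-105200000 for Serpina1a and Serpina1b, chr9:103050000-103180000 for Trf, and chr3:82760000-82900000 for Fga, Fgb and Fgg. A site belonged to a window when it overlapped it by at least 1 bp. By this rule 60 of 28196 listed sites were members: 16 of 6604 young Foxa2 sites, 36 of 12834 old Foxa2 sites, 7 of 5828 young Hdac3 sites and 1 of 2930 old Hdac3 sites. The sites came from chromatin immunoprecipitation with sequencing (ChIP-seq) of liver of wild-type C57BL/6 mice, a common inbred strain, at 3 months (young) and 21 months (old). Each protein and age had 2 libraries and 1 list of sites for both, so no value has a replicate error and no age difference was tested. Read depth is unknown, and the 95% intervals are exact (Clopper-Pearson) and cover counting error only. No gene annotation of mm9 was used here, so a site is tied to its window and not to one gene, exon or intron.

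Apart from Afp, these genes are highly expressed in the adult hepatocyte, the main cell of the liver. Alb encodes albumin, the carrier that holds water in the blood, and Afp encodes its fetal relative alpha-fetoprotein, which the liver largely switches off after birth. Ttr encodes transthyretin, a carrier of thyroid hormone and of the retinol-binding protein. Serpina1a and Serpina1b encode mouse forms of alpha-1-antitrypsin, which blocks neutrophil elastase, Trf encodes the iron carrier transferrin, and Fga, Fgb and Fgg encode the chains of fibrinogen, from which clots are made. Foxa2 is a forkhead factor that can bind compacted chromatin, and liver forkhead factors were identified through their binding to the Ttr and alpha-1-antitrypsin promoters. Hdac3 removes acetyl groups from histones as part of the corepressors that nuclear receptors recruit.

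Forkhead proteins prefer DNA with the core TGTTTAC or TGTTTGC, and these letters were searched for in promoters of the genes studied here. The sequence of the listed sites was not read, so a match does not show binding. The RefSeq promoter table (GRCm38.p6, another build than that of the sites, so its positions cannot be set beside theirs) gave the sequence before the start of 7 of the 9 genes. In the 250 bases before the start, 4 promoters held TGTTTGC once, namely those of Alb, Afp, Serpina1a and Serpina1b. They are printed 5′ to 3′ on the gene's strand with the match in capitals. In Alb the match is on the opposite strand, where the letters read GCAAACA.
Alb, chr5:90460620-90460869, + strand: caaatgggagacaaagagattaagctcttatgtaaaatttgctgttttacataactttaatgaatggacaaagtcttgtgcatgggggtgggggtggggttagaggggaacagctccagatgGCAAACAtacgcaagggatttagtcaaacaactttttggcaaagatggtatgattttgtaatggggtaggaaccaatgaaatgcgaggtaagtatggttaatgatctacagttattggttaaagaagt
Afp, chr5:90490464-90490713, + strand: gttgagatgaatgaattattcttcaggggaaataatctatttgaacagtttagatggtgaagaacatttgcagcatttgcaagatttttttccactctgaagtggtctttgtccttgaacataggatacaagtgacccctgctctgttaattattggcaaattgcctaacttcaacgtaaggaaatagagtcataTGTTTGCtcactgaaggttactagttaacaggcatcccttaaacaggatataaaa
Serpina1a, chr12:103863620-103863869, - strand: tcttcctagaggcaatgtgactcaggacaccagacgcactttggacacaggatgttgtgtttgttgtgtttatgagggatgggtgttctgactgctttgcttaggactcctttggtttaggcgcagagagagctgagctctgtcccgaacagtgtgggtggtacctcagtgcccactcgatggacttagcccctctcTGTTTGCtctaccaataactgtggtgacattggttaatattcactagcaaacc
Serpina1b, chr12:103738190-103738439, - strand: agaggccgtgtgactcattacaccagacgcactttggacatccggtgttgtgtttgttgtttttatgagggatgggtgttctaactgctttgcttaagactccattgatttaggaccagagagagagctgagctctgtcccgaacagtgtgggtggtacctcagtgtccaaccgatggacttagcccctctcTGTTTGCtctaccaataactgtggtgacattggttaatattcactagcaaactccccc
The match lay 122 to 128 bases before the start in Alb, 49 to 55 in Afp, 47 to 53 in Serpina1a and 52 to 58 in Serpina1b. Of all 32851 promoter windows of this length in the table, 4.30% held TGTTTGC on either strand and 3.17% held TGTTTAC. Neither core was found in the promoters of Fga, Fgb and Fgg, which says only that these letters are not in those windows. The Serpina1a and Serpina1b promoters were identical at 227 of 242 aligned bases (93.8%). In the RefSeq gene order Serpina1d lies between these genes, and 5 copies named Serpina1a to Serpina1e are listed in all. The sources used here do not say how the authors placed reads that match several copies, so a site in the Serpina1 window may belong to another copy.

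Foxa2 was listed in all 5 windows at both ages, and 4 of them held more sites at 21 than at 3 months. The Alb and Afp window held 3 young and 13 old Foxa2 sites, the Serpina1 window 2 and 8, the Trf window 2 and 4, and the fibrinogen window 6 and 9. The Ttr window went the other way, with 3 young and 2 old sites. Together the windows held 2.25 times as many old as young Foxa2 sites, against 1.94 times over the whole lists. With lists of equal length by q they held 16 young and 27 old Foxa2 sites. There the whole lists hold the same number of sites at both ages, so 1.94 is not the matching ratio. With 1 list per age the difference has no replicate check, and the excess over the whole-list ratio was not tested. Hdac3 was listed in all 5 windows at 3 months, at 1 or 2 sites each, and only in the fibrinogen window at 21 months, at 1 site. The q values reached 0.2 in the Hdac3 lists and 0.12 in the Foxa2 lists. Of the young Hdac3 sites of the windows, only the 2 at Alb and Afp, with a q of 0.109, lay below 0.12. The old over young ratio for Hdac3 was 0.143 in the windows and 0.503 over the whole lists. For Hdac3 the direction depended on the q limit, both in the windows and over the whole lists. Over the whole lists 77.9% of young Hdac3 sites had a q above 0.1, while the median old q was 0.0775. The old list was thus the longer one at q of at most 0.1. At that limit the windows held 0 young and 1 old Hdac3 site. With lists of equal length by q they held 2 and 1, and widened by 50 kb on each side 15 and 2.

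**Figure D1:**
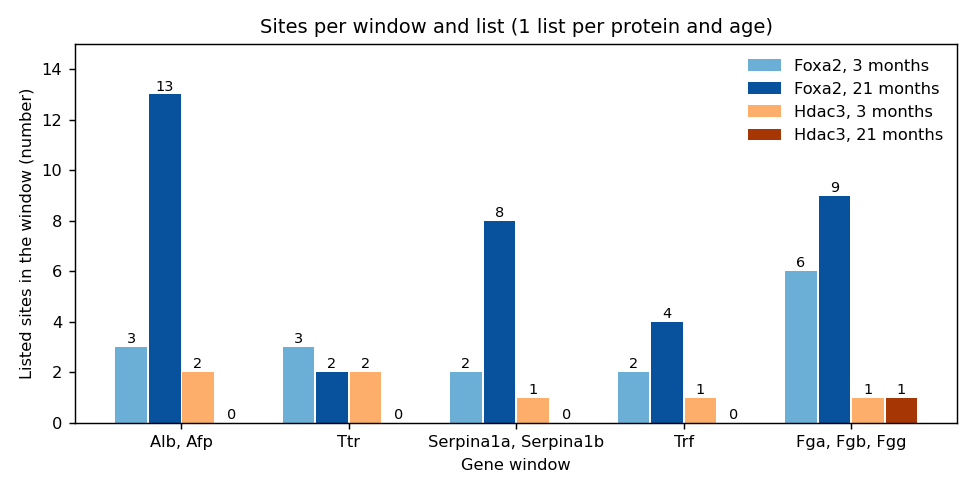
Bars give the number of listed sites (vertical axis) in each gene window (horizontal axis) for each of the 4 lists, with 1 list per protein and age and no error bar. The old Foxa2 bars are highest at Alb and Afp (13), at the fibrinogen genes (9) and at Serpina1 (8).

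The windows were dense in Foxa2 sites for the lists they came from. Over all 5 windows, 830 kb in total, there were 19.3 young and 43.4 old Foxa2 sites per Mb, which is 7.49 and 8.64 times the 2.57 and 5.02 sites per Mb of the whole lists between the first and last site of each chromosome. The old Foxa2 sites at Alb and Afp stood at 86.7 per Mb, and 0.117% of all bins of 100 kb were as dense (0.0235% with bins as long as the window). The young sites at the fibrinogen genes stood at 42.9 per Mb, matched by 0.179% of bins, and the old ones at 64.3 per Mb, matched by 0.388%. The other windows were less unusual. For old Foxa2 the share of bins as dense was 2.69% for Trf, 5.48% for Serpina1 and 11.4% for Ttr, and for young Foxa2 it was 1.38% for Ttr, 4.55% for both Trf and the Alb and Afp window, and 18.4% for Serpina1. At least 1 young Foxa2 site lay in 18.4% of bins and at least 1 old one in 27.4%. For young Hdac3 the windows held 8.43 sites per Mb, 3.70 times the list's 2.28. The single old Hdac3 site gave 1.20 per Mb, against 1.15 for its list.

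Most young Foxa2 sites of the windows were listed again in old liver. Of the 16 young sites 13 overlapped an old Foxa2 site, 81.2% (95% interval 54.4 to 96.0), where 40.7% of all young Foxa2 sites did. Of the 36 old sites 14 overlapped a young one, 38.9% (23.1 to 56.5), where 21.0% of all old sites did. With lists of equal length by q, 81.2% of young and 51.9% of old sites of the windows overlapped one of the other age. The shares of the whole lists cut in this way are not given here. The 40.7% and 21.0% of the uncut lists are thus no match for these values. All 3 young sites at Alb and Afp and both at Trf were found again, as were 5 of 6 at the fibrinogen genes, 2 of 3 at Ttr and 1 of 2 at Serpina1. Old-only sites numbered 10 at Alb and Afp, 6 at Serpina1, 4 at the fibrinogen genes, 2 at Trf and 0 at Ttr. The shares of the windows and of the lists were set side by side without a test. The sites compared also differed in q. A q of at most 0.01 was held by 9 of the 16 young members and by 21.1% of the young list. Of all young sites with such a q, 89.3% overlapped an old site. How much of the difference in shares goes with q was not tested. Both depend on what counts as overlap: with 50% of each site required, the shares were 37.5% and 16.7% in the windows and 18.7% and 9.60% over the lists.

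**Figure D2:**
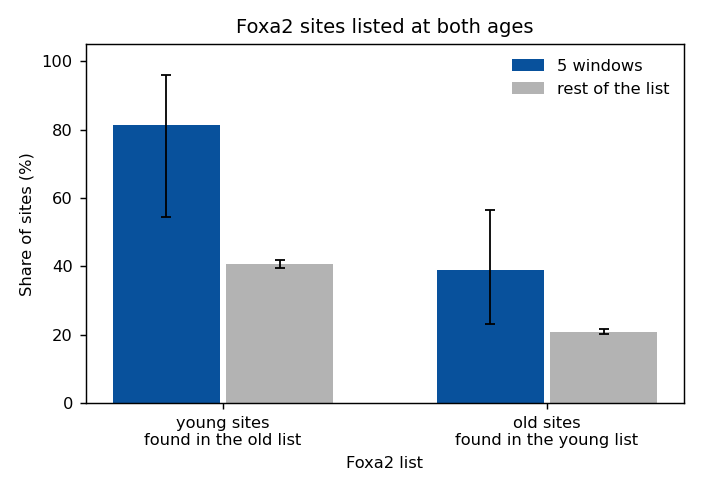
Bars give the share of Foxa2 sites (%, vertical axis) that overlap a site of the other age by at least 1 bp, for young and for old sites, in the 5 windows (blue) and in the rest of each list (grey), with exact 95% intervals for counting error. The share in the windows is 81.2% for young and 38.9% for old sites, and in the rest of the lists 40.6% and 20.9%.

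At the albumin locus the 3 sites of both ages were spread over the window. The first lay at chr5:90876732-90876889 in the young list, with an authors' enrichment of 28.0 and a q of 5.37e-06, the lowest young q of the window, and at chr5:90876712-90876878 in the old list (enrichment 31.2, q 0.00143). The second lay at chr5:90896364-90896541 in the young list (enrichment 9.45, q 7.89e-05) and at chr5:90896370-90896549 in the old list (enrichment 28.0, q 1.22e-05). At these 2 places the sites of both ages nearly coincided, at widths of 158 and 167 bp for the first and 178 and 180 bp for the second. The third lay at the far edge of the window, at chr5:90989862-90989984 in the young list (enrichment 29.6, q 0.000127) and chr5:90989808-90990081 in the old list, where it had both the highest enrichment (45.4) and the lowest q (5.69e-12) of the window. The 10 old-only sites lay before and between these places, with enrichments from 7.57 to 43.7 and q from 0.000768 to 0.0942. Neighbouring old sites of the window were 1597 to 34422 bp apart. The old-only site with the lowest q lay at chr5:90889721-90890046, 326 bp wide. It and the other old-only sites singled out below were chosen after their values were seen.

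At the Ttr locus all Foxa2 sites of the old list were already in the young list. The first lay at chr18:20800200-20800231 at 3 months (enrichment 41.5, q 0.0359) and at chr18:20800118-20800303 at 21 months (enrichment 30.9, q 0.000505). The second lay at chr18:20823794-20823831 (enrichment 46.6, q 0.0359) and at chr18:20823770-20823869 (enrichment 34.2, q 0.0447). The remaining young site, chr18:20871009-20871019, was 11 bp wide, had the highest young enrichment of all windows (101) and the same q of 0.0359, and lay 47140 bp from the nearest old site. The young Ttr sites were thus narrow, from 11 to 38 bp, and had a q value held by 11 sites of the list, so their order by q rests on ties.

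At Serpina1 a single place was listed at both ages inside the window. It lay at chr12:104976658-104976757 in the young list (enrichment 17.7, q 0.00233) and at chr12:104976454-104976801 in the old list, with an enrichment of 84.3, the highest of the window, and a q of 3.77e-06. The old site with the lowest q, chr12:105199995-105200242 (enrichment 68.2, q 7.02e-10), sat on the window's far edge, and the young site it overlapped, chr12:105200108-105200190 (enrichment 7.08, q 0.0199), began 108 bp outside. Just before the near edge, chr12:104897446-104897717 of the old list (enrichment 65.0, q 1.52e-14) and chr12:104897543-104897685 of the young list (enrichment 20.1, q 6.59e-07) overlapped each other 2283 and 2315 bp outside. At both ages this place had a lower q than any Foxa2 site inside the window. The widest member of all, 391 bp, was the old-only site chr12:105143147-105143537 (enrichment 39.0, q 2.13e-05). The other young site, chr12:105103975-105103995, was 21 bp wide with a q of 0.0354 and had no old counterpart.

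At Trf the sites of both lists lay in one cluster of 13.7 kb. The stronger place was chr9:103136964-103137072 in the young list (enrichment 8.97, q 0.00467) and chr9:103136924-103137105 in the old list, where it had the highest enrichment (44.2) and the lowest q (2.18e-08) of the window. The second was chr9:103143759-103143771 in the young list, 13 bp wide with an enrichment of 2.99 and a q of 0.12, at the limit of the list, and chr9:103143725-103143817 in the old list (enrichment 12.3, q 0.0296). An old-only site flanked the pair on each side, with q values of 0.0174 and 0.0043.

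The fibrinogen genes had the lowest q of any window in both lists. At chr3:82824431-82824699 the old list gave an enrichment of 157 and a q of 3.19e-17, rank 26 of 12834, and the young site there, chr3:82824457-82824607, had an enrichment of 16.7, a q of 3.74e-07 and rank 98 of 6604. A tight group of 3 places followed, each listed at both ages. In the old list they were chr3:82853659-82853972 (enrichment 17.2, q 1.11e-08), chr3:82854697-82854879 (35.3, 6.96e-07) and chr3:82856104-82856270 (52.8, 0.000103), separated by 725 and 1225 bp. In the young list they were chr3:82853851-82853950 (9.92, 0.0071), chr3:82854715-82854844 (26.4, 7.51e-05), which had the highest young enrichment of the window, and chr3:82856133-82856225 (17.2, 0.00603). The remaining place of both ages was weaker, with a q of 0.0284 at chr3:82811470-82811504 in the young list and 0.0285 at chr3:82811429-82811522 in the old list. The young-only site chr3:82843069-82843100 (q 0.0653) lay 688 bp from the old-only site chr3:82843788-82843939 (q 0.000298), so a near neighbour was listed at the other age without overlap.

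**Figure D3:**
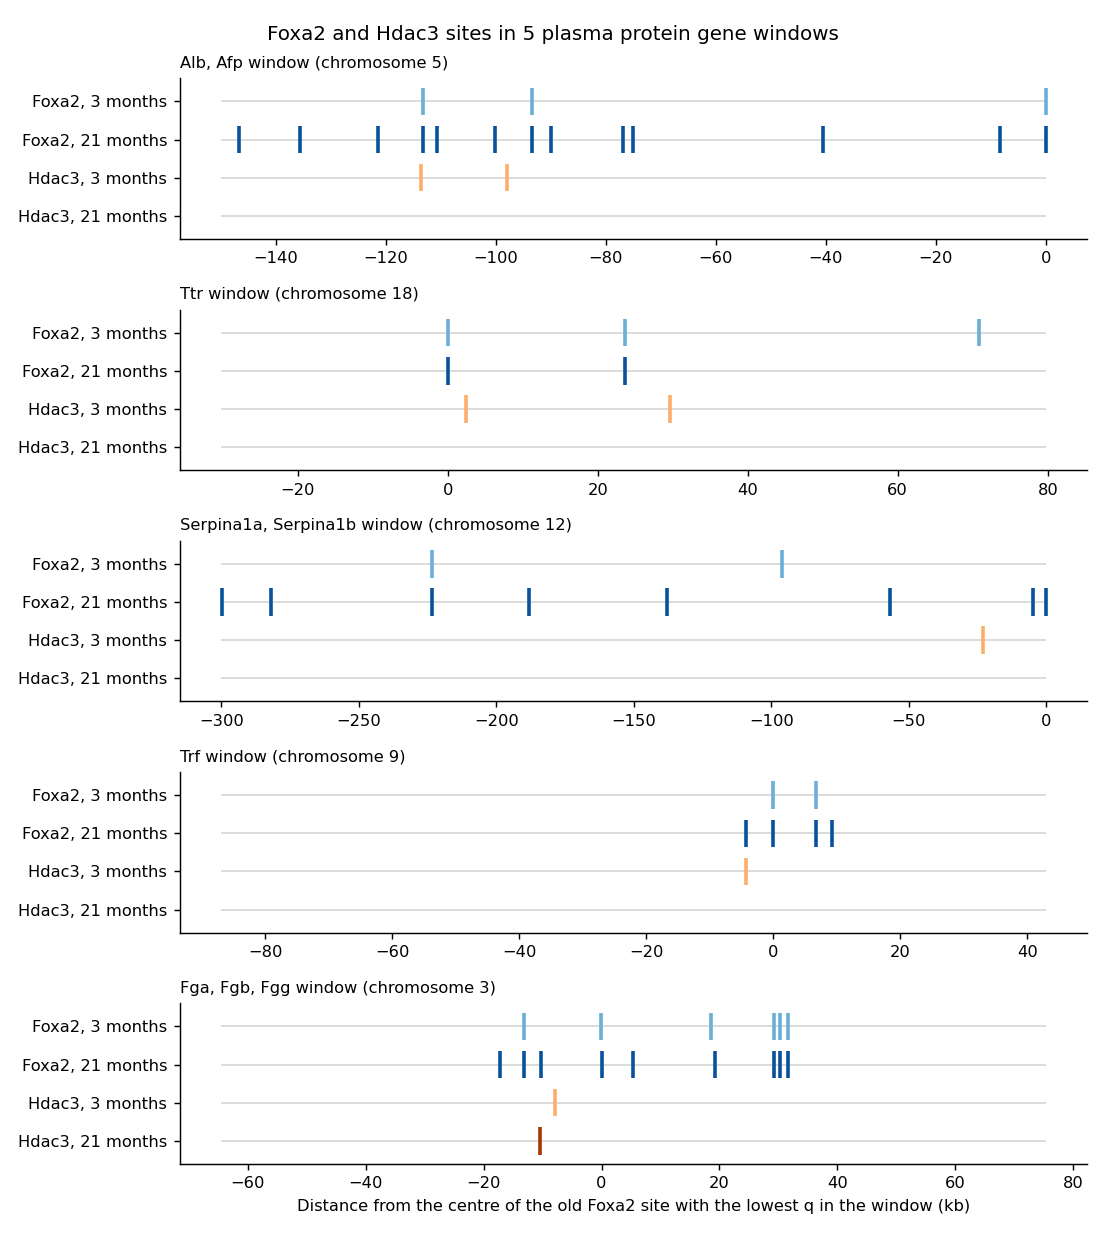
Each panel is 1 gene window and each tick a listed site in 1 of the 4 lists, placed by its distance in kb from the centre of the old Foxa2 site with the lowest q in that window; grey lines span the window. At the fibrinogen genes 5 of 6 young Foxa2 ticks stand above an old one, and at Alb and Afp 10 of 13 old ticks have no young partner.

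Where a place was listed at both ages, the old site was the wider one in all 13 pairs. Old sites of these pairs had a median width of 182 bp and young ones 100 bp, and the median ratio of old to young width was 2.23, with a range from 1.01 to 7.15. In 11 pairs the young site lay wholly inside the old one, and in the other 2, both at Alb and Afp, neither enclosed the other. The centres were 3.5 to 85 bp apart, with a median of 8.5 bp. Wider old sites were a feature of the lists as a whole: over all 2700 overlapping pairs 90.9% had the wider site in the old list, the median ratio was 1.98, 75.5% of young sites lay inside the old one and the median distance of centres was 18 bp. Depth, which is unknown, can also set a site's width, and its part was not tested.

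**Figure D4:**
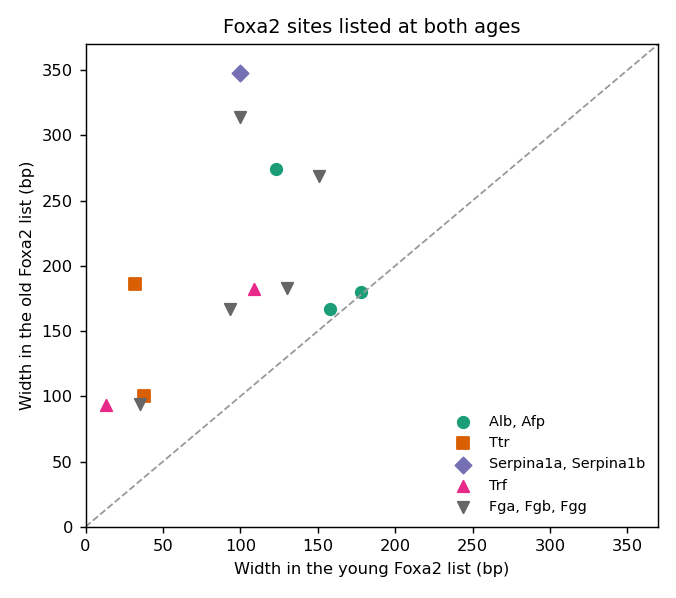
Each point is 1 of 13 places where a young and an old Foxa2 site overlap, with the width in bp in the young list (horizontal axis) and in the old list (vertical axis); marker shape and colour give the window and the dashed line marks equal widths. All points lie above the line, and 2 of the 3 at Alb and Afp lie close to it.

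Foxa2 members tended to stand high in their lists by q, though the young ones were split. The better 50% of the list by q held 9 of the 16 young and 26 of the 36 old members. An enrichment above the list's median was held by 9 young and 25 old members. A q of at most 0.01 was reached by 9 of the 16 young sites, where 21.1% of the young list reached it, and by 21 of the 36 old sites, where 30.8% of the old list did. The median rank by q was at 17.6% of the list for young and 26.8% for old members, with 0% the best. The windows differed: young members at Alb and Afp stood between 2.15% and 4.29%, those at Ttr at 71.8%, and those at the fibrinogen genes between 1.48% and 91.4%. All 9 young members with such a q were places of both ages, as were 89.3% of all young sites with such a q. The 3 young-only members ranked at 71.1%, 71.8% and 91.4%. The median enrichment of members was 17.0 in the young list (whole list 11.9) and 30.4 in the old list (22.3), and the median width 96.5 bp (40 bp) and 152 bp (100 bp). Enrichments and ranks come from lists made separately, so they cannot show whether binding changed with age.

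**Figure D5:**
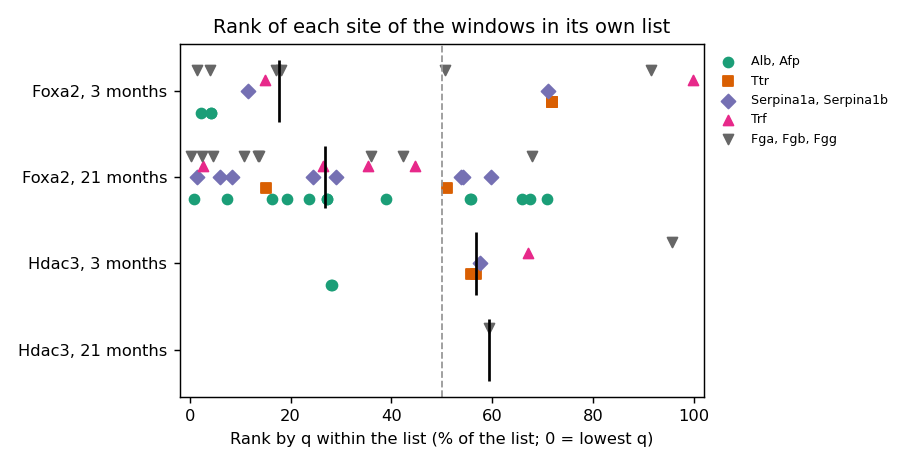
Each marker is 1 member site, placed by its rank by q within its own list in % of that list (horizontal axis, 0 is the lowest q), with 1 row per list; marker shape and colour give the window, the black line is the median of the members and the dashed line the middle of a list. The Foxa2 medians stand at 17.6% and 26.8%, and the Hdac3 sites except the 2 at Alb and Afp lie past 50%.

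The 22 old-only Foxa2 sites of the windows were mostly near young ones. Of these, 13 (59.1%) lay within 10 kb of a young Foxa2 site, where 17.4% of the 10144 old-only sites of the whole list did. The median gap was 7238 bp, from 688 to 41543 bp, against 77071 bp for all old-only sites. The windows were dense in young sites, so short gaps go with the density given above, and whether they go beyond it was not tested. A q of at most 0.01 was reached by 10 of the 22, of which 4 lay at Alb and Afp, 3 at Serpina1, 2 at the fibrinogen genes and 1 at Trf, where 19.2% of all old-only sites reached it. Their median width was 114 bp, against 90 bp for all old-only sites.

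Hdac3 had fewer listed sites than Foxa2 at these genes, and no site of it overlapped Foxa2 of the same age. None of the 16 young Foxa2 sites overlapped a young Hdac3 site and none of the 36 old ones an old Hdac3 site, where 3.23% of all young and 1.22% of all old Foxa2 sites did. At these shares 16 and 36 sites would hold 0.516 and 0.438 overlaps, so the 0 is no result about the windows. The single overlap was between ages, at Trf. There the young Hdac3 site chr9:103132621-103132661 (enrichment 15.6, q 0.147) lay inside the old-only Foxa2 site chr9:103132602-103132701 (enrichment 29.1, q 0.0174); of all old Foxa2 sites 2.05% overlapped a young Hdac3 site.

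The gap of the 7 young Hdac3 sites to the nearest young Foxa2 site ranged from 307 to 22947 bp with a median of 4371 bp, against 136413 bp over the young Hdac3 list. The windows held 7.49 times the list's density of young Foxa2 sites, and short gaps go with such a density. Whether the gaps were shorter than the density gives was not tested, so they are not read as a result about Hdac3. Of the 7 sites 1 lay within 500 bp, where 6.02% of the young Hdac3 list did. The nearest was chr5:90876405-90876425 at Alb and Afp (enrichment 120, q 0.109), 307 bp before a young and 287 bp before an old Foxa2 site of the place listed at both ages. The other at this locus, chr5:90891948-90891993 (61.2, 0.109), lay 4371 bp from a young and 1902 bp from an old Foxa2 site. At Ttr chr18:20802605-20802676 (7.76, 0.133) lay 2374 bp and chr18:20829790-20829814 (67.5, 0.133) 5959 bp from a young Foxa2 site. The site at Serpina1, chr12:105177114-105177161 (38.4, 0.134), was the farthest, 22947 bp from a young Foxa2 site. Just outside the windows 3 more young Hdac3 sites were listed. The one past the far edge of Serpina1, chr12:105201836-105201871 (22.5, 0.185), lay 1646 bp from a young Foxa2 site. The site at the fibrinogen genes, chr3:82816598-82816647 (5.97, 0.193), lay 5094 bp from a young and 2238 bp from an old Foxa2 site. The old Hdac3 site, chr3:82814058-82814067 (15.3, 0.0858), was 10 bp wide and lay 274 bp from the old-only Foxa2 site chr3:82814341-82814360, which was 20 bp wide, and 2531 bp from the young Hdac3 site. Each of the 7 young Hdac3 sites exceeded a q of 0.1, as did 77.9% of their list. Their widths ran from 21 to 72 bp, with a median of 46 bp against 26 bp for the list. No Hdac3 site of the windows was listed at both ages, where 2.71% of young and 5.56% of old Hdac3 sites overlapped one of the other age.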

How the data were processed

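Per the labels, Foxa2 and Hdac3 ChIP-seq of liver gave 2 libraries for each protein and age and 1 list of sites for both. Per the submitters' processing notes, BWA and mm9 were used. Peak caller, control and depth are not known here. Per the file headers, the authors gave every site its limits, a fold enrichment over an unstated reference and a q-value. Positions are printed as listed, and it is not known whether they count from 0 or 1. Widths count both the first and the last position.

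Sites overlapping a window by at least 1 bp were taken, ranked by q with ties put in order of enrichment. An overlap of 1 bp or more made sites of 2 lists shared, and a gap is the distance between the nearest edges. Bins of 100 kb tiled each chromosome from the first to the last site of a list. A bin was as dense as a window when it held at least as many sites per length. Named were, per window and list, the sites with the lowest q and the highest enrichment, every Foxa2 place of both ages, every Hdac3 site and every Foxa2 site on an Hdac3 site. The members and lists were chosen with earlier results of these data known. Alternatives were q limits, window edges, list length and the definition of overlap. A list of other plasma protein genes was not used, as no mm9 gene positions were at hand. Promoters came from RefSeq (GRCm38.p6) and were searched on both strands. Overlap counts equalled those of bedtools 2.31.1 for 12 ordered pairs of lists, and the counting was tested on simulated data. Python 3.11.15, numpy 2.4.6, pandas 2.3.3, scipy 1.17.1, Biopython 1.88 and matplotlib 3.10.9 were used.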

Additional observations from a re-analysis of the deposited data

Results flagged for a closer look

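In the windows the number of listed sites was higher at 21 months for Foxa2 and lower for Hdac3. The old list held 2.25 times as many Foxa2 sites as the young one, and for Hdac3 the ratio was 0.143, from 7 sites to 1. With lists of equal length by q, which hold the same number of sites at both ages, the windows held 16 young and 27 old Foxa2 sites. The Hdac3 direction turned with q of at most 0.1, where the windows held 0 young and 1 old site, and with lists of equal length they held 2 and 1. Each protein and age had 1 list, so the difference was not tested. The whole lists as given had the same opposite directions, with ratios of 1.94 and 0.503. With q of at most 0.1 the old Hdac3 list was the longer one. Of the 5828 young Hdac3 sites 4540 exceeded that limit, while the median q of the old Hdac3 list was 0.0775. The Ttr window went the other way for Foxa2, with a ratio of 0.667, but only from 3 sites to 2. The young-only site there was 11 bp wide, with a q of 0.0359 held by 11 sites of the list.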

How the results depend on the processing

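Of 92 recomputed values of 18 results, 68 stayed within the interval of the reported value or within 1.5 times of it. With q of at most 0.1, 0.05 and 0.01 the young Hdac3 sites of the windows numbered 0, and so did their density ratio; at 0.05 and 0.01 the old Hdac3 count and ratio were 0 too, and at 0.05 the Foxa2 sites on Hdac3 of either age were 0. With q of at most 0.01 there were 9 young and 21 old Foxa2 sites, at 19.6 and 16.2 times the density of their lists, and the median old q was 0.000294. Windows widened by 50 kb held 15 young and 2 old Hdac3 sites. With lists of equal length by q, 2 young Hdac3 sites remained. With a required overlap of 50% of each site, 37.5% of young and 16.7% of old Foxa2 sites were found at the other age, and 0 lay on Hdac3 of either age. With edges within 500 bp, 2 Foxa2 sites were near Hdac3 of the same age and 4 near Hdac3 of either age. For the same age these were 6.25% of young and 2.78% of old members, where 5.19% and 1.65% of the whole lists were as near. Of old members 5.56% were near young Hdac3, where 3.39% of the old list were. Counts so small and near these shares are no result about the windows. Windows narrowed by 10 kb moved no result past these bounds. Chosen after seeing the data were bins of each window's own length, where 2.82% of bins matched young Alb and Afp, 0.0235% old Alb and Afp, 2.87% old Serpina1 and 4.15% old Trf, and ranks within the chromosome, where the young Hdac3 median was 30.7% in place of 56.8%. No paired analysis was possible because each group has 1 list and no value per library, and for the same reason no library could be left out.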

Other observations

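The q values of the lists differed by chromosome. In the old Foxa2 list the median q was 0.0683 on chromosome 9, which holds Trf, against 0.0285 to 0.0458 on the other chromosomes of the windows. On chromosome 18, which holds Ttr, the median q was 0.0354 in the young Foxa2 list and 0.148 in the young Hdac3 list. On chromosome 5, which holds Alb and Afp, these medians were 0.0276 and 0.111. The young Hdac3 sites at Ttr, at a median of 56.3% of their whole list by q, stood at 13.4% of the sites of their chromosome. Their q was held by 86 sites of the list, 14 of them on chromosome 18, so both ranks rest in part on ties. Whether the authors computed q for each chromosome or for the whole genome is not known here, and a rank by q across chromosomes depends on it. The young Foxa2 sites at Ttr changed less, from 71.8% to 65.4%.

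Many sites repeated the exact enrichment of another site of the same chromosome and list. At Serpina1 the old sites chr12:104918236-104918335 and chr12:105062333-105062432 both had 29.2 and a width of 100 bp, and at the fibrinogen genes 2 old sites had 33.5 and 2 had 35.3. Such repeats made up 69.4% of the old and 56.2% of the young Foxa2 members, and 63.2% and 54.9% of the whole lists. These sites were chosen after their values were seen, and the cause was not tested.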
